A study of Mus musculus with 24 samples.

Results

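The AP-2 genes of the mouse are 5 protein-coding genes, Tfap2a, Tfap2b, Tfap2c, Tfap2d and Tfap2e, and their start sites were examined for H3K4me3 in C127, an epithelial line from mouse mammary gland, among 21755 protein-coding genes in all. The members were chosen by family name, with the pattern of H3K4me3 peaks at these genes already known, so all values on peaks are given as a description and no test was made. H3K4me3 was mapped by ChIP-seq on formaldehyde-crosslinked chromatin of C127 cells, for which the labels name no transgene or treatment, with 3 replicates and 1 input sample. These belong to a series of 24 samples in 12 groups, whose other groups were ChIP of endogenous CFP1, KDM2B and RNA polymerase II, ChIP for GFP in clonal C127 lines with GFP alone or with wild-type or mutant GFP-CFP1, and a further input. The remaining 21 samples were not used here. The data were a single list of 13451 peaks found in every replicate, with positions and no heights, so values have no spread between replicates, read depth is unknown, and a gene without a peak has no consensus peak rather than a measured absence of the mark.

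AP-2 proteins bind GC-rich DNA as dimers through a helix-span-helix domain, and their preferred site is the palindrome GCCNNNGGC. They act largely in tissues of ectodermal origin and in the placenta. Tfap2a is required for neural crest, face and skin, Tfap2b for kidney and parts of the neural crest, Tfap2c for trophoblast and germ cells and, with Tfap2a, in mammary epithelium, while Tfap2d is known from midbrain and retina and Tfap2e from the olfactory system. H3K4me3 is laid down around transcription start sites (TSSs) by SET1 and MLL complexes, and CFP1 links the SET1 complex to CpG islands, which are stretches of DNA rich in CpG that overlie many vertebrate promoters.

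The following sequences show what lies before AP-2 starts with and without a peak. The 250 bases upstream of a RefSeq start (GRCm38.p6, the build of the peak list) are printed 5′ to 3′ on the strand of the gene, with each CpG in capitals. The Tfap2a sequence (chr13:40734921-40735170, minus strand) lay inside a peak. Those of Tfap2b (chr1:19211804-19212053, plus strand), Tfap2d (chr1:19102772-19103021, plus strand) and Tfap2e (chr4:126736270-126736519, minus strand) did not. The last sequence is the stretch of 200 bases outside exons with the most CpGs in the Tfap2a peak (chr13:40731240-40731439, minus strand). The Tfap2b window belongs to the start of Tfap2b-202, which had no island, and the Tfap2d window to the most upstream of 3 RefSeq starts. Tfap2c is not shown.
Tfap2a: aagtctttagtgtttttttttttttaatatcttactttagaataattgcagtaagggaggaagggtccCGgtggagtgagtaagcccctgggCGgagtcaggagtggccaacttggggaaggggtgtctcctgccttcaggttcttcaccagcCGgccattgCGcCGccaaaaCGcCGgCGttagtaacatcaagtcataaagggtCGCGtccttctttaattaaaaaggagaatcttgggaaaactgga
Tfap2b: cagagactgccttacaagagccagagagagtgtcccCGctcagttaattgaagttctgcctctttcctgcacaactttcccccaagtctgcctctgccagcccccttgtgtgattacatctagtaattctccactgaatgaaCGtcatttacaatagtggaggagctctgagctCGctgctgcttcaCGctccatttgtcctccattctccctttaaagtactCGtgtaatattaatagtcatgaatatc
Tfap2d: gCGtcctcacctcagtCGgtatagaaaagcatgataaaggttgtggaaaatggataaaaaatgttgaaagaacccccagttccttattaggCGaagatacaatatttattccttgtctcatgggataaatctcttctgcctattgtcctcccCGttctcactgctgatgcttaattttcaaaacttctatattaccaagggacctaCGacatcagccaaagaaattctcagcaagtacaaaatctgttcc
Tfap2e: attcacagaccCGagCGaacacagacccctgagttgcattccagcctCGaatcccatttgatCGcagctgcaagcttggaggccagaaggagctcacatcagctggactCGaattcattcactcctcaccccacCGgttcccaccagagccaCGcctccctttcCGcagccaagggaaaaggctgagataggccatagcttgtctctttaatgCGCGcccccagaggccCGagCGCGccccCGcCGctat
Tfap2a, densest CpG stretch: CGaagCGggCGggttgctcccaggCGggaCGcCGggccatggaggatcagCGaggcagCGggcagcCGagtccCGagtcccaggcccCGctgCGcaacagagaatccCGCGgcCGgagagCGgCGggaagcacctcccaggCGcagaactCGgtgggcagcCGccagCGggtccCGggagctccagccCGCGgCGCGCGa

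The upstream bases of the Tfap2a start shown held 10 CpGs. Those of Tfap2e held 15 and those of the Tfap2b and Tfap2d starts shown held 5 each (4 and 7 at the other Tfap2d starts), against a median of 6 over 32851 RefSeq promoters of 27025 genes. Among the windows compared, Tfap2e without a peak had more CpGs than Tfap2a with one. The densest stretch of the Tfap2a peak held 27 CpGs in 200 bases and was 76.0% G and C. None of these upstream windows held the AP-2 motif GCCNNNGGC, which reads the same on both strands and was present in 13.7% of all promoter windows of this length. A GC box (GGGCGG on either strand) was found in the Tfap2a window and in 32.7% of all windows. TATAAA, in 12.4% of all windows, and CCAAT, in 33.8%, were found in none of the AP-2 windows, each searched on both strands. A missing match says only that these letters are not in the window.

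H3K4me3 was found at the start of 1 of the 5 AP-2 genes. Tfap2a had a peak within 250 bp of a TSS, and Tfap2b, Tfap2c, Tfap2d and Tfap2e had none. Over all protein-coding genes, 49.4% (10747 of 21755) had such a peak. A CpG island was defined from sequence alone (length from 200 bp, GC fraction from 0.5, and from 0.6 of the CpGs that its base composition predicts). All 5 AP-2 genes had such an island within 250 bp of a TSS, and of the 14601 protein-coding genes with one, 70.9% (10354) had a peak. The members' count was not tested against these shares.

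The Tfap2a peak was among the widest in the list. It ran over 15906 bp of chromosome 13 (40722331 to 40738236, mm10). Its width was 4.89 times the median of peaks at a protein-coding TSS, 3254 bp, for which the quartiles were 2410.5 and 4258 bp. It ranked 9 of 10747 genes with a peak and 10 of 13447 peaks on the 20 chromosomes used, and it was wider than the peak of 99.9% of genes with one. Its neighbours in that order were Irf2bpl (17298 bp) and Tnrc18 (16196 bp) above, and 4930412O13Rik and 9230102O04Rik below, which are annotated beside Gata3 and share its peak of 15554 bp. No spread between replicates can be given for these widths, so the error of the order among these neighbours is unknown.

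**Figure D1:**
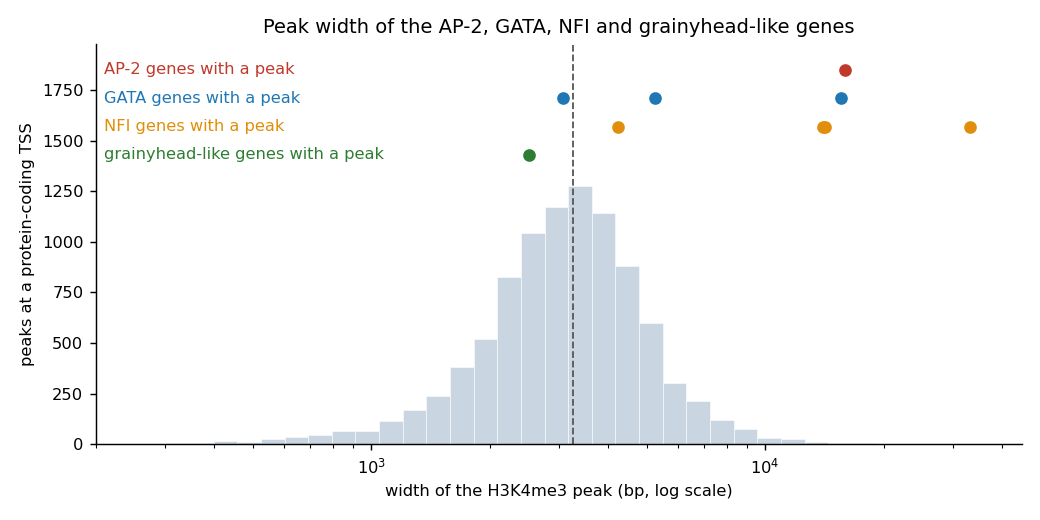
Width of H3K4me3 peaks at a protein-coding TSS (bars; horizontal axis in bp on a log scale, vertical axis the number of peaks; dashed line, median of 3254 bp), with points for the AP-2, GATA, NFI and grainyhead-like genes that had a peak. Tfap2a at 15906 bp lay far to the right of the bulk, next to Gata3 at 15554 bp and to the NFI genes Nfib at 14178 bp and Nfic at 14014 bp.

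The peak did not flank a single start but spread over much of the annotated gene. Tfap2a (ENSMUSG00000021359.16) runs over 23075 bp on the minus strand (40715302 to 40738376), and the whole peak lay within it, covering 68.9% of its length. The part without a peak was the last 7029 bp at the 3′ end, together with the 140 bp at the 5′ end. Of the 10 exons of the basic transcripts, 6 were inside the peak, 1 was partly inside and 3, all at the 3′ end, were outside. These exons made up 12.5% of the peak, so most of the marked DNA lay outside them. Part of that DNA lay between alternative starts and is intronic only for transcripts that begin farther upstream.

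Tfap2a has 6 basic TSSs, which span 9432 bp, and 5 of them were inside the peak. From upstream to downstream these were the starts of Tfap2a-208 (40734920), Tfap2a-206 (40733975), Tfap2a-202 (40733823), Tfap2a-201 (40730443) and Tfap2a-209 (40728944). The most upstream start, that of Tfap2a-203 (40738376), lay 140 bp outside the 5′ edge and was within reach only through the 250 bp allowance. The next nearest member TSS on the far side of that allowance was that of Tfap2e, 15346 bp from a peak. The peak list alone does not show which of the starts within the peak were in use.

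Relative to the outermost annotated starts within 250 bp of it, the peak was shifted in the direction of transcription. Upstream it ended 140 bp short of the most upstream TSS. Peaks of protein-coding genes reached a median of 940 bp upstream of the most upstream start so counted. A smaller upstream reach was found for 0.456% of 10747 genes. Starts farther than 250 bp from a peak were not counted, so no peak could end more than 250 bp short of the start used. The percentile holds only under that limit. Downstream it ended 6613 bp beyond the most downstream TSS, against a median of 1999 bp, a distance larger than that of 98.9% of genes. Measured from the start inside the peak that lay farthest upstream, Tfap2a-208, the 5′ edge was 3316 bp upstream and the 3′ edge 12589 bp downstream. That upstream reach is above the median of 940 bp, so the short reach on the 5′ side depended on counting the Tfap2a-203 start.

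**Figure D2:**
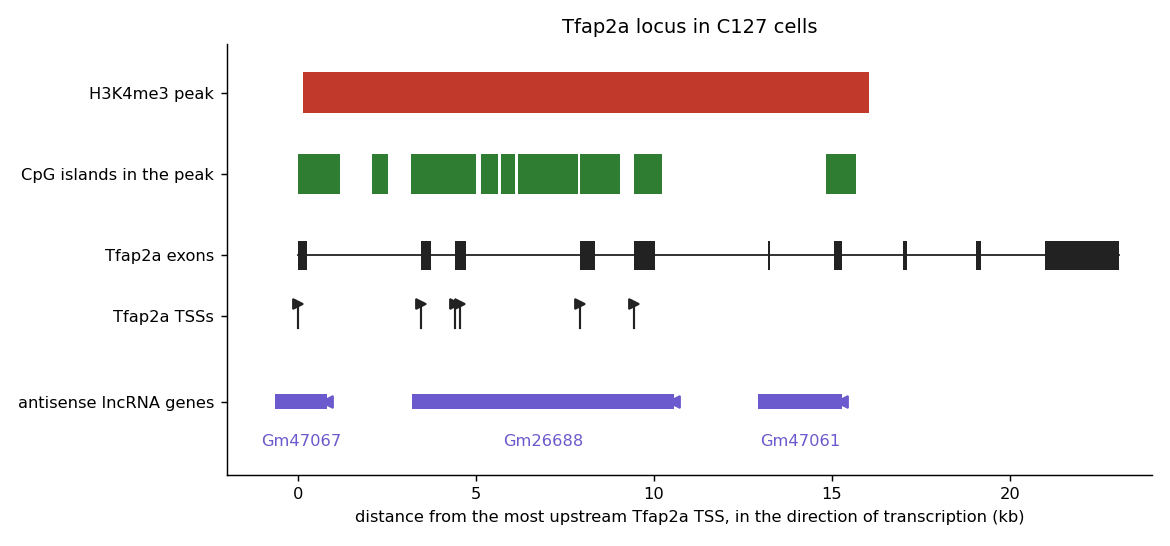
Map of the Tfap2a locus, with the distance in kb from the most upstream TSS in the direction of transcription on the horizontal axis and separate rows for the H3K4me3 peak, the CpG islands it overlapped, merged exons of basic transcripts, their TSSs (arrowheads) and lncRNA genes of the opposite strand (arrowhead at the TSS). The 15906 bp peak covered 5 of 6 Tfap2a starts, 10 islands and the starts of 3 antisense lncRNA genes, and ended before the last 3 exons.

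CpG islands followed one another along the peak. It overlapped 10 islands of 354 to 1817 bp, which held 532 CpGs and filled 54.7% of it (8693 bp). The richest was an island of 1690 bp with 139 CpGs just upstream of the start of Tfap2a-201 (40730511 to 40732200), and the longest was one of 1817 bp with 92 CpGs around the starts of Tfap2a-202, Tfap2a-206 and Tfap2a-208 (40733373 to 40735189). The most 5′ island (824 bp, 43 CpGs) was covered over 82.0% of its length and the other 9 were covered whole. Read from its 5′ edge in steps of 1 kb, the peak held 82 and 77 CpGs per kb between 6000 and 8000 bp. It then crossed a CpG-poor stretch between 10000 and 14000 bp, where the values were 15, 5, 14 and 10 per kb, and ended in a final 906 bp with 59.6 per kb. H3K4me3 was thus called across DNA of low CpG density as well as over the islands.

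As a whole the Tfap2a peak was not unusually dense in CpG. It held 38.6 CpGs per kb, against a median of 34.5 over 9438 peaks at a protein-coding TSS, which put it at the 63.0th percentile. Among the 72 of these peaks of at least 10 kb the median was 26.7 per kb, and Tfap2a stood above 86.1% of them. In total it held 614 CpGs, against a median of 108 over all these peaks and of 348 over the wide ones. The AP-2 motif occurred 11 times in the peak, or 0.692 times per kb, against a median of 0.486 per kb over all 9438 peaks (65.4th percentile). A motif match is a description of the sequence and not a binding site.

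The Tfap2a peak also held the starts of 3 lncRNA genes, Gm47061, Gm26688 and Gm47067, all transcribed from the strand opposite to Tfap2a. The start of Gm47067 (40737568) was 808 bp downstream of the Tfap2a-203 start and 668 bp from the 5′ edge of the peak. That of Gm26688 (40727808) was 1136 bp downstream of the Tfap2a-209 start, and its transcript crosses 5 Tfap2a starts towards 40735162. That of Gm47061 (40723110) lay 5834 bp downstream of the last Tfap2a start and 779 bp from the 3′ edge. For comparison, lncRNA starts inside a peak or within 250 bp of it were counted. At least 1 was found at 12.6% (1188) of the 9438 peaks at a protein-coding TSS, and at 28 of the 72 peaks of at least 10 kb. Counted in that way, the only such peaks with 3 lncRNA genes were those of Tfap2a and of Setd1b (11880 bp), a catalytic subunit gene of a SET1 complex. The list does not say from which strand a peak derives. The remaining lncRNA genes near Tfap2a, Gm9979 and Gm48107, started 18326 and 16760 bp from the peak.

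Tfap2c had the longest single TSS island of the family, with the most CpGs in any one of them, and no peak. The gene (ENSMUSG00000028640.11, chromosome 2, 172549593 to 172558622, plus strand) has 3 basic TSSs, and all lay in an island of 2903 bp with 222 CpGs (172549322 to 172552224). This island was longer than the longest TSS island of 99.4% of protein-coding genes with one, and had more CpGs than that of 98.0%. Of 298 protein-coding genes whose longest TSS island had at least as many CpGs, 223 (74.8%) had a peak and 75, Tfap2c among them, did not. Among the 4247 genes with an island and no peak it ranked 73 by CpGs. The nearest peak was 92560 bp from a Tfap2c TSS, a peak of 1216 bp beyond the 3′ end of the gene (172643551 to 172644766).

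Tfap2e likewise had a long island and no peak. The gene (ENSMUSG00000042477.7, chromosome 4, 126716006 to 126736240, minus strand) has 1 basic TSS, in an island of 1593 bp with 140 CpGs (126735016 to 126736608). With 87.9 CpGs per kb this island was denser than that of Tfap2c (76.5 per kb) and than any TSS island of Tfap2a (50.6 to 82.2 per kb). Its coding neighbours on both sides had a peak at their own starts. Ncdn, 7509 bp upstream, had a peak of 3975 bp, and Psmb2, a proteasome subunit gene 6291 bp downstream, had one of 1869 bp. The distances of 7509 and 6291 bp are between the genes and not to their peaks. The nearest of these peaks ended 15346 bp from the Tfap2e TSS. Beyond the 3′ end of Tfap2e, the first peak was 37059 bp from the gene. Tfap2e thus lay in a stretch of 72639 bp without a peak, with a peak on either side.

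Tfap2b and Tfap2d lie next to each other on chromosome 1, 42567 bp apart, and neither had a peak. Tfap2d (ENSMUSG00000042596.7, 19103022 to 19166346, plus strand) has 1 basic TSS with an island of 347 bp and 20 CpGs beside it. Tfap2b (ENSMUSG00000025927.13, 19208914 to 19238576, plus strand) has 3 basic TSSs, 2 of which had an island of 382 bp with 19 CpGs. These islands were short, at the 7.9th and 8.94th percentiles of length among genes with one. Longer islands without a peak lay within both genes, one of 1040 bp with 51 CpGs in Tfap2d (19104050 to 19105089), which also holds the start of the antisense lncRNA gene Gm15825, and others of 896 bp with 56 CpGs and of 964 bp with 46 CpGs in Tfap2b. The island of 1040 bp also holds a RefSeq start of Tfap2d (19104133). That of 964 bp holds the start of Tfap2b-203 (19213879), which is outside the basic set. The nearest peak was 1714209 bp from Tfap2d and 1605177 bp from Tfap2b. Both genes lay in a stretch of 4.13 Mb without any peak, which held the starts of 12 protein-coding genes and ranked 47 by length among 13427 gaps between peaks. Of the genes without a peak, 96.6% were nearer to one than Tfap2d and 96.2% nearer than Tfap2b.

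The loci of the genes without a peak held no marked island at all. Between the neighbouring coding genes, up to 100 kb on each side, there were 17 islands around Tfap2b, 37 around Tfap2c, 13 around Tfap2d and 6 around Tfap2e. The windows of Tfap2b and Tfap2d share 2 islands, among them that at the Tfap2b start, which leaves 71 distinct islands, and none of them overlapped a peak. Around Tfap2a there were 37 islands, of which the 10 described above overlapped the peak and 27 did not. The longest unmarked island of that locus, of 1698 bp, was about as long as the longest marked ones. The 20 chromosomes held 158144 islands by this definition and 13447 peaks. The share of all islands that overlap a peak is not given here. These counts thus have no background and cannot show whether the AP-2 loci differ from others. The peak near Tfap2c was the only one in the 5 windows besides that of Tfap2a. The windows end at the neighbouring coding genes, so peaks within those genes were left out, and this count has no background either. Tfap2a itself lay apart from other marks, with no further peak for 178165 bp on its 5′ side, where Gcnt2 (peak of 5387 bp) is the next coding gene, and for 1761127 bp on its 3′ side, where Ofcc1, without a peak, is the next.

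**Figure D3:**
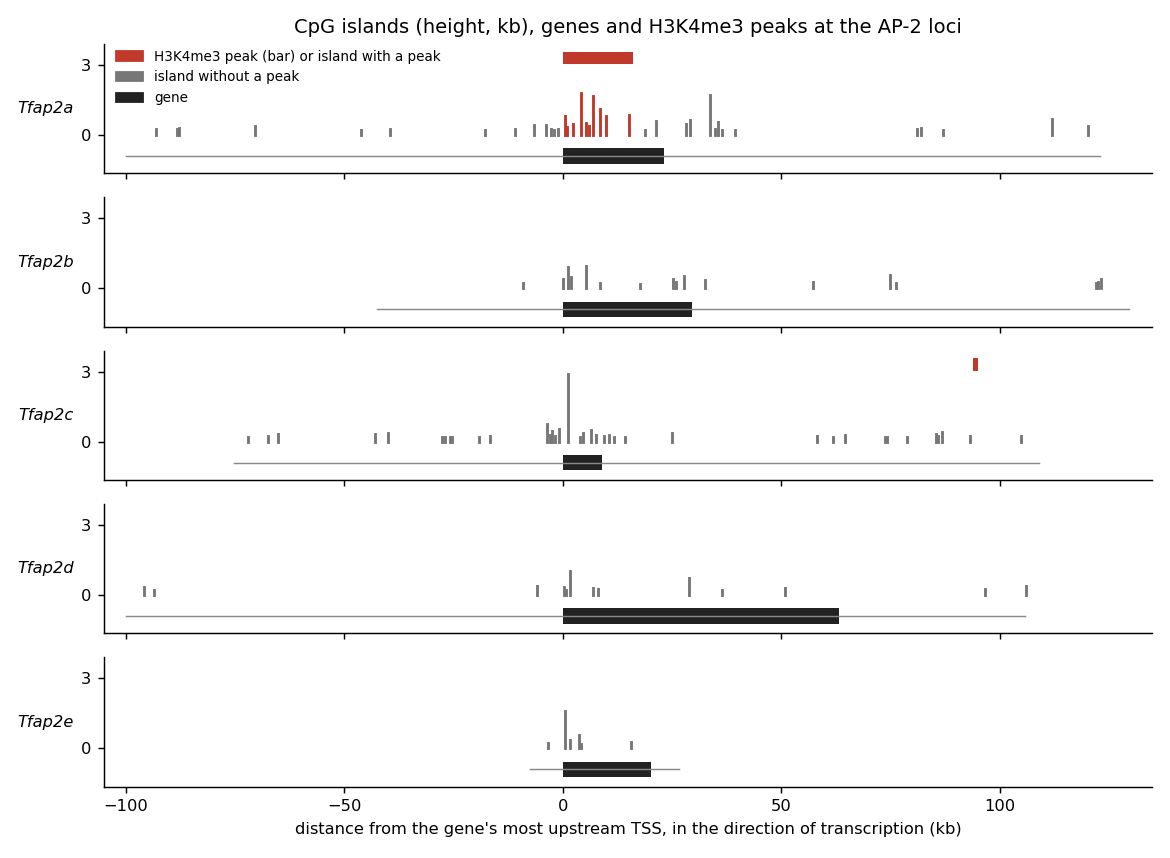
The 5 AP-2 loci aligned on the most upstream TSS of each gene, with the distance in kb in the direction of transcription on the horizontal axis. Vertical lines are CpG islands with their length in kb as height (red with a peak, grey without), red horizontal bars are H3K4me3 peaks, black bars are genes and thin lines mark the window used. Marked islands were present only in Tfap2a, 10 of 37, and the tallest line, the unmarked island of 2903 bp, stood at Tfap2c.

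Island length did not order the family by H3K4me3. Among protein-coding genes, a peak was found at 22.6% of genes whose longest TSS island was 200 to 399 bp long (Tfap2b and Tfap2d), at 82.4% with 1200 to 1599 bp (Tfap2e), at 77.7% with 1600 to 1999 bp (Tfap2a) and at 67.2% (154 of 229) with 2500 bp or more (Tfap2c). By their basic starts, Tfap2b and Tfap2d were thus in the group with the lowest share, and Tfap2c and Tfap2e were without a peak in groups where most genes had one. The islands of 1040 and 964 bp at other annotated starts of Tfap2d and Tfap2b were not used for this placement. For islands of 800 to 1199 bp the share was 80.9%. The authors kept uniquely mapped reads only, and the share of words of 31 bases that occur once in the genome was counted within 250 bp of each basic TSS. It was 96.9% for Tfap2a, 90.8% for Tfap2b and 100% for Tfap2c, Tfap2d and Tfap2e. Within the TSS island of Tfap2b it was 82.4%, the lowest of the regions counted. The part of this in the missing peaks was not tested.

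**Figure D4:**
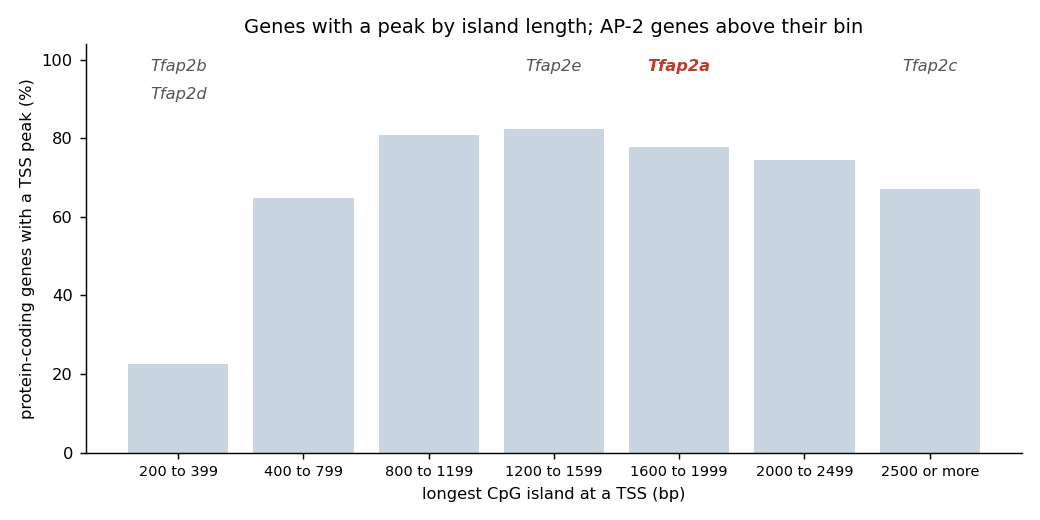
Share of protein-coding genes with a TSS peak (vertical axis, %) by the length in bp of the longest CpG island at a TSS (horizontal axis), with the AP-2 genes written above their bin (red bold with a peak, grey without). Tfap2c stood in the bin of 2500 bp or more, where 67.2% had a peak, and Tfap2e in that of 1200 to 1599 bp, where 82.4% had one.

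Other small families of transcription factors were set beside the AP-2 genes. All 4 NFI genes had a peak, with a median width of 14096 bp and the widest at Nfix (33102 bp). Of the 6 GATA genes 3 had one, Gata3 (15554 bp), Gata2 (5259 bp) and Gata4 (3070 bp). Of the 3 grainyhead-like genes, which act in surface epithelia, only Grhl1 had one (2520 bp). Of these 13 genes 12 had an island at a TSS, and the share with a peak was 49.4% over all protein-coding genes and 70.9% over those with such an island. These families were chosen with the results known, and no test was made of the difference.

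Of 14 genes for AP-2 cofactors and regulators 12 had a peak (85.7%, median width 3517.5 bp). All 14 had an island at a TSS, and 70.9% of protein-coding genes with one had a peak. The genes with a peak included the coactivator genes Cited2 (6129 bp), Ep300 (5428 bp) and Crebbp (4092 bp), and Kctd15 (3842 bp) and Kctd1 (3660 bp), whose products inhibit AP-2 activity. Cited1 and Cited4, further AP-2 coactivator genes, had islands of 2631 and 1337 bp and no peak.

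Of 22 reported AP-2 target genes, most known from human cells, 11 had a peak (50.0%), beside 49.4% of all protein-coding genes. An island was present at a TSS of 19 of the 22, and of genes with an island 70.9% had a peak. The widest were at Vegfa (6531 bp), Igf1r (5827 bp), the thrombin receptor gene F2r (5167 bp) and Cdkn1a (3771 bp), and the receptor tyrosine kinase gene Erbb2 had one of 3474 bp. Cdh1, Foxa1, Greb1 and Kit were among the 11 without a peak. The line itself was checked in the same way. Of 14 luminal mammary markers 3 had a peak, Gata3, Esr1 (2320 bp) and Muc1 (1534 bp), and the keratin genes Krt8 and Krt18, Epcam and Cdh1 had none. Of the 8 basal and myoepithelial markers 0 had one, although Krt14 gained a peak of 1677 bp with a distance of 1000 bp or with all annotated transcripts. Only 2 of these 8 had an island at a TSS, and of the 7154 protein-coding genes without an island 5.49% had a peak. An island was present at 13 of the 14 luminal and 12 of the 15 mesenchymal markers. Of the mesenchymal markers 12 had a peak, with the widest at Fn1 (7629 bp), Twist2 (7374 bp), Snai1 (7302 bp) and Vim (7153 bp). Col1a1, Dcn and Lum had none, and under the same settings as Krt14, Col1a1 gained one of 2725 bp. Most of the listed mammary epithelial markers were thus without a consensus peak at a basic TSS, and any part of this in the values of the AP-2 genes was not tested.

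**Figure D5:**
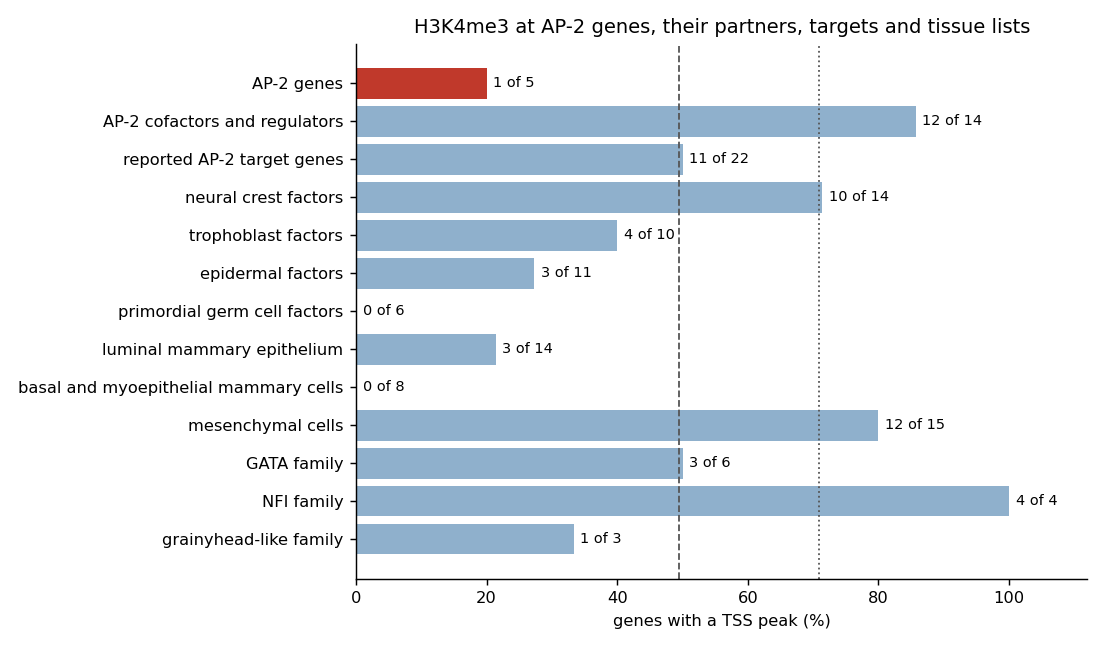
Share of genes with a TSS peak (horizontal axis, %) for the AP-2 genes (red) and for lists of related genes (blue), with the counts at the end of each bar. Vertical lines mark the share of all protein-coding genes (dashed, 49.4%) and of those with a CpG island at a TSS (dotted, 70.9%), and the AP-2 bar, at 1 of 5, lay below both.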

How the data were processed

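H3K4me3 ChIP-seq of C127 cells was analysed from 1 deposited peak list, and samples were grouped by the labels alone. According to the methods of the study, the authors aligned reads to mm10 with bowtie2, discarded reads without a unique position, removed duplicates with SAMtools, called peaks with MACS in each of the 3 replicates against a matched control, kept those that overlapped in every replicate and merged peaks within 250 bp. The submitters' processing notes name Bowtie2, SAMtools and MACS2 without versions. The deposited values are the start and end of each peak in bp, with no score, so depth is unknown and replicates could not be compared. The smallest gap was 251 bp, and all peaks lay within the chromosome lengths of GRCm38.p6. Starts were made 1-based.

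The annotation was the basic set of GENCODE vM21, with TSSs of 21755 protein-coding and 9603 lncRNA genes on 20 chromosomes. A peak within 250 bp was taken as being at a TSS, and the widest was used for each gene. A scan of the GRCm38.p6 sequence, tested on simulated sequence, gave 158144 CpG islands (minimum length 200 bp, minimum GC fraction 0.5, minimum CpG ratio 0.6, observed to expected). Their methylation was not used. Promoter sequences came from RefSeq (GRCm38.p6), in which 4 of the 5 members were matched. Named genes were the members, genes with a start in their peaks, neighbours in position or width, and from each list the 4 widest and up to 4 without a peak in alphabetical order, or every member where the smaller side had 8 or fewer. Kctd1, Kctd15 and Erbb2, and the markers Krt8, Krt18 and Epcam, were added as examples after their values were seen. A list member that this rule would name is not reported here. The members and the lists were chosen with earlier results of these data known, so they give no independent support. Python 3.11.15 with numpy 2.4.6, pandas 2.3.3, pysam 0.24.0 and matplotlib 3.10.9 was used.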

Additional observations from a re-analysis of the deposited data

How the results depend on the processing

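The count of 1 of 5 AP-2 genes with a peak did not change with a TSS distance of 0 or 1000 bp, with all annotated transcripts, with 1 TSS per gene (the most upstream) or with peaks within 1000 bp merged. It fell to 0, with a width of 0 bp, when the most upstream TSS and a distance of 0 bp were used together, a combination chosen after seeing the data, because that TSS lies 140 bp outside the peak. With a distance of 0 bp alone, the peak reached 3316 bp upstream of the most upstream TSS counted, against -140 bp before. With 1 TSS per gene it ranked 8 by width and reached 16045 bp downstream. Merging peaks left its width unchanged but moved its rank to 17, since other peaks grew. Stricter islands (500 bp, GC fraction 0.55, ratio 0.65) left 14 unmarked islands at the 5 loci and 3 of the 5 AP-2 genes, all but Tfap2b and Tfap2d, with an island at a TSS, and windows of 50 kb held 0 peaks outside the genes. With all annotated transcripts 1 primordial germ cell factor, Nanos3, gained a peak, as did the markers Krt14 and Col1a1, which also gained one with a distance of 1000 bp. Some listed genes lost theirs, namely Kctd1, Cdkn1a, Zeb2 and Nfic with 1 TSS per gene and Msx2 with a distance of 0 bp. The other 68 values recomputed were the same or, for counts, within 1.5 times. Leaving out a replicate could not be tried, because the list holds only peaks shared by all 3. No paired analysis was possible because the result comes from no test. Without heights, a broad weak domain and a broad strong one cannot be told apart, and neither can a narrow gap between marked stretches be seen where the authors merged them.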

Other observations

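Factors of the tissues in which AP-2 proteins act differed in how many had an H3K4me3 peak in C127 cells. Of 14 neural crest factors 10 had one (71.4%), with the widest at Snai1 (7302 bp), Sox9 (6594 bp), Ets1 (5926 bp) and Snai2 (3964 bp). Foxd3, Pax7, Sox10 and Zic1 had none. Snai1, Snai2 and Twist1 of this list are also in the mesenchymal marker list.

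Of 10 trophoblast factors 4 had a peak, Gata3 (15554 bp), Tead4 (6998 bp), Gata2 (5259 bp) and Ets2 (4357 bp). Cdx2, Elf5, Eomes, Esrrb, Gcm1 and Hand1, with which Tfap2c acts or is expressed in the early placenta, had none. Of 11 epidermal factors 3 had a peak, Klf5 (4377 bp), Klf4 (4108 bp) and Grhl1 (2520 bp), and Ehf, Elf3, Grhl2 and Grhl3 were among those without one. None of the 6 primordial germ cell factors, Dnd1, Dppa3, Nanos3, Prdm1, Prdm14 and Sox17, had a peak at a basic TSS. An island was present at a TSS of 13 of the neural crest, 9 of the trophoblast, 9 of the epidermal and 5 of the germ cell factors. The share with a peak was 49.4% over all protein-coding genes and 70.9% over those with an island. These lists are small and were not tested.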
